A study of Mus musculus with 8 samples.

Results

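Hepcidin and iron handling genes are 10 genes of the mouse liver transcriptome picked by their symbols, namely Hamp, Hamp2, Tfrc, Tfr2, Trf, Bmp6, Tmprss6, Slc40a1, Fth1 and Ftl1. All 10 were found among the 55385 gene identifiers of the deposited table, and all 10 were among the 14340 genes tested, each of which reached an FPKM of 0.5 in 4 or more of the 8 livers. FPKM is the read count of a gene scaled by the length of its exons and by the total count of the liver, so that levels can be set side by side between genes. The study asked what the loss of Usp39, a protein of the spliceosome, does to the liver. Total liver RNA was sequenced from 4 Usp39-HKO mice and 4 control mice, with 1 library per mouse. Usp39-HKO mice came from Usp39 fl/fl mice, in which loxP sites flank exon 2, crossed to Alb-Cre mice, in which the albumin promoter drives the Cre recombinase. The deletion is therefore aimed at hepatocytes, and the other cells of the liver carry the floxed gene. The controls were littermates that the labels call WT, and whether they carried floxed alleles or Cre is not given in the sources used here. All 8 mice were males on the C57BL/6J background, 5 weeks old, and had fasted for 16 h.

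Hepcidin, the product of Hamp, is a peptide hormone that hepatocytes secrete when iron stores or inflammation rise. It binds ferroportin, the only known iron exporter of animal cells and the product of Slc40a1, and makes the cell take it in and degrade it, which lowers the release of iron into the blood. Hepatocytes set their hepcidin output through BMP ligands and SMAD transcription factors, through a complex that senses transferrin-bound iron and holds transferrin receptor 2, and through IL-6 and STAT3, while the protease matriptase-2, the product of Tmprss6, restrains it.

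The total count was 9181571, 9912927, 8589636 and 10418450 in control livers 1 to 4 and 9718618, 10195028, 9541480 and 9479922 in Usp39-HKO livers 1 to 4. Given as CPM, the count scaled by the total count of the liver, 3 counts are worth 0.288 to 0.349, a floor that covers counting error only. The spread between 2 separate mice of a genotype, as chi-square per degree of freedom against counting noise, ran from 6.78 to 37.2, which is a description and no test. Usp39 itself, the deleted gene, had an FPKM of 9.35, 10.4, 8.76 and 9.78 in control livers and of 8.37, 8.63, 8.70 and 8.07 in Usp39-HKO livers. Every Usp39-HKO liver was below every control liver, by a small margin. In edgeR the log2 fold change of Usp39 was -0.41 (SE 0.11, adjusted p = 0.0212), and the call was lost without Usp39-HKO liver 4 (-0.35, adjusted p = 0.0615), without control liver 4 (-0.41, adjusted p = 0.0547) and without TMM scaling (-0.18, adjusted p = 0.247). Only exon 2 is floxed, so the count over the whole gene can still hold reads from a deleted allele and from cells without Cre.

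Of the 10 iron genes, 2 had an adjusted p under 0.05 in edgeR, Tfr2 and Tmprss6, and both were lower in Usp39-HKO livers. In all genes tested, 3225 of 14340 (22.5%) passed, 1561 higher (10.9%) and 1664 lower (11.6%), so a share of 2 in 10 is near the background. The total of 3225 was 1931 without control liver 3, 2043 without control liver 4 and 2094 without Usp39-HKO liver 4. The other 8 did not pass, and only these 2 had an unadjusted p under 0.05. Of the 10 log2 fold changes 6 were above 0 and 4 below, with a median of 0.13 against -0.0015 in all genes tested. These fold changes are relative to the median gene, because TMM scaling centres the livers, whereas FPKM are not scaled that way. Without TMM scaling the median log2 fold change over all genes tested was 0.24 in edgeR, where 83.5% of the genes called were higher instead of 48.4%. It was 0.17 in limma with log2(FPKM + 1). Of the 10 genes, Trf (0.073) and Fth1 (0.11) also lay above 0 in edgeR without TMM scaling, and only Tfr2 and Tmprss6 lay below. Without TMM scaling Bmp6 (0.55, adjusted p = 0.0336 in edgeR) and Slc40a1 (0.53, adjusted p = 0.0338 in edgeR) also passed.

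**Figure D1:**
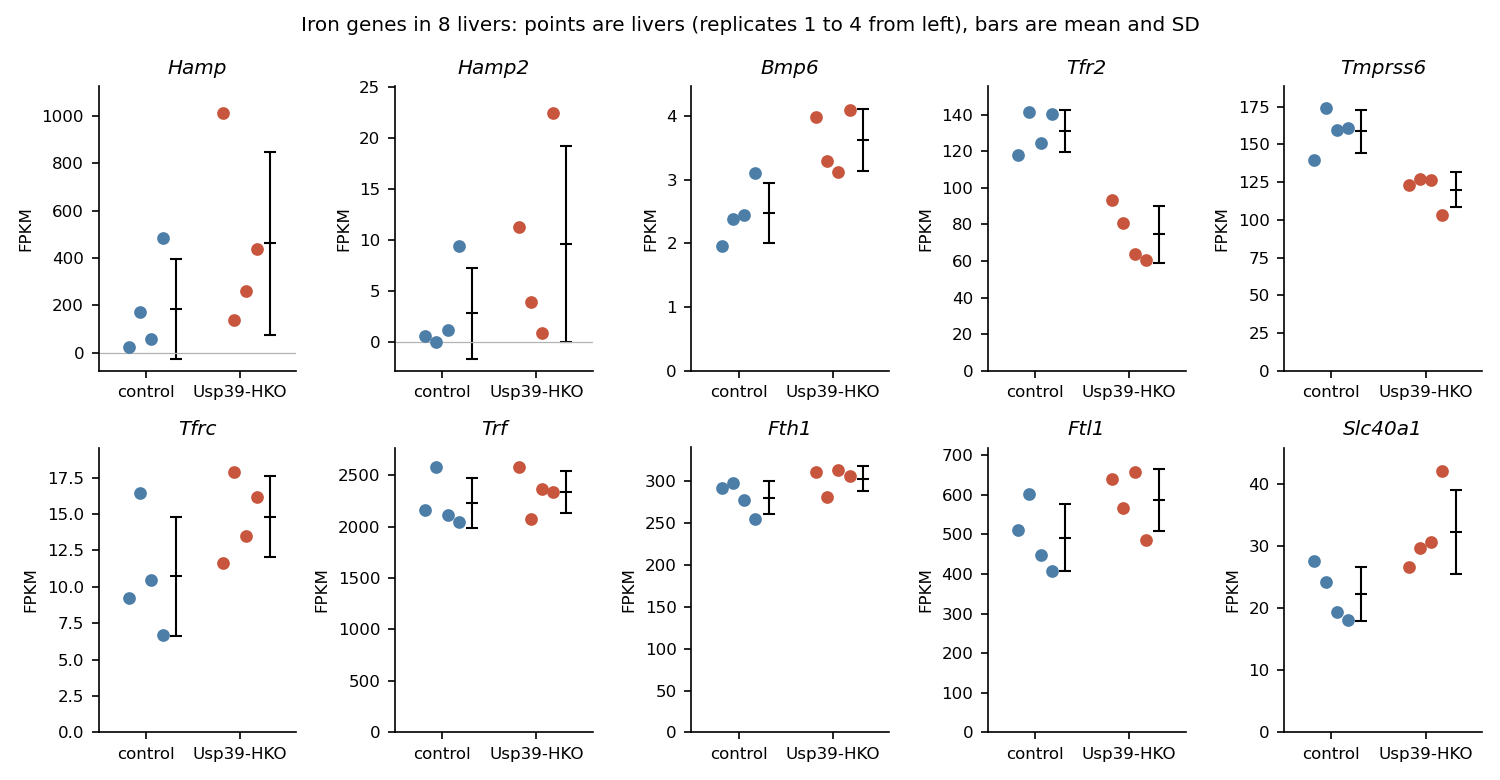
FPKM of the 10 iron genes in each of the 8 livers, 4 control livers in blue and 4 Usp39-HKO livers in red, with the mean and SD (n = 4) beside each group. The groups do not overlap for Tfr2, Tmprss6 and Bmp6, 3 of the 10 genes, near the 4120 of 14340 genes tested (28.7%) without overlap. The single livers of Hamp and Hamp2 lie far apart in both groups.

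Hamp (ENSMUSG00000050440) is a minus strand gene of chromosome 7, at chr7:30942368-30944032 in GRCm38, next to its copy Hamp2 (ENSMUSG00000056978) at chr7:30922372-30924681. Hamp2 encodes a second hepcidin-like peptide of the mouse, whose part in iron balance is less clear. The coding sequences are 252 and 255 bases long and 92.5% identical over their alignment. No stretch of at least 150 bases reached 97% identity, and the longest match was 93.0% identical over 417 bases, so that few read pairs should fit both genes. Because hepcidin is known to be switched on through its promoter, the 200 bases before the start site that RefSeq gives for each gene are shown, from the minus strand of GRCm38.p6, at chr7:30944030-30944229 for Hamp and chr7:30924182-30924381 for Hamp2. The GENCODE M21 span of Hamp2 given above starts further upstream, so its printed window lies within that span. Capitals mark GGCGCC, the letters of the BMP-responsive element, and TTCNNNGAA, the letters of a STAT element.
Hamp: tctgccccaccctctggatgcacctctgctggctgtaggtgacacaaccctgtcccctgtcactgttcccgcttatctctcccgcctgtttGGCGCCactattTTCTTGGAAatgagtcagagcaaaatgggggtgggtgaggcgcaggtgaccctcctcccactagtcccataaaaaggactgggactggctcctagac
Hamp2: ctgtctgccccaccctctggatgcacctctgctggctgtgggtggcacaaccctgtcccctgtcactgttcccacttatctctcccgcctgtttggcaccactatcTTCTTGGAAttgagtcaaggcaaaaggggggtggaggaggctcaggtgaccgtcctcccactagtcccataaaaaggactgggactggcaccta
The windows were 90.1% identical. Hamp held GGCGCC from base -109 and TTCNNNGAA from base -97 before its start, whereas Hamp2 held TTCNNNGAA from base -94 and no GGCGCC, since in its place stood the change G4A, counted from 1 at the first base of GGCGCC in Hamp. Each pattern was searched on both strands, on which it reads the same, and the patterns do not overlap. GGCGCC was found in 3898 of 32851 promoters of the table (11.9%), each 300 bases long, and TTCNNNGAA in 2726 (8.30%). Of the 10 genes, 7 matched the table, all but Trf, Tmprss6 and Slc40a1, and of these 7 only Tfrc also held GGCGCC, from base -89 of 1 of its start sites. A match of letters is a description and does not show that a factor binds there.

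The FPKM of Hamp was 23.9, 173, 57.4 and 486 in control livers 1 to 4 and 1010.4, 139, 260.5 and 436 in Usp39-HKO livers 1 to 4. Usp39-HKO liver 1 stood above all others and control livers 1 and 3 below all others, but control liver 4 was higher than 3 of the 4 Usp39-HKO livers, so the groups overlapped. The control mean was 185 ± 210 and the Usp39-HKO mean 462 ± 386 (SD, n = 4 each, two-sided exact permutation test, p = 0.257). The log2 fold change was 1.13 with an SE of 0.79 (edgeR, adjusted p = 0.336). It lay between 0.32 without Usp39-HKO liver 1 and 2.23 without control liver 4 (edgeR, adjusted p = 0.789 and 0.0732). The spread within a genotype was among the widest of all genes. The highest control liver had 20.3 times the Hamp level of the lowest, and in Usp39-HKO livers this ratio was 7.27. On the scale of log2 CPM the SD of Hamp within groups was 1.57, against a median of 0.22 over all genes tested, and only 15 of 14340 genes had a larger SD.

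Hamp2 was expressed far below Hamp in every liver. Its FPKM was 0.560, 0, 1.20 and 9.38 in control livers and 11.3, 3.87, 0.899 and 22.4 in Usp39-HKO livers. Control liver 4 stood apart from the other controls, and Usp39-HKO liver 3 lay below both control livers 3 and 4. Counts of Hamp2 ran from 0 to 124, and the 0 counts in control liver 2 allow a level of up to 0.303 CPM. As a share of the Hamp level in the same liver, Hamp2 reached between 0 and 5.14%, and this share overlapped between genotypes. The log2 fold change of Hamp2 was 1.47 (SE 0.97, adjusted p = 0.304 from edgeR), and it passed only without control liver 4 (3.77, adjusted p = 0.0461 from edgeR). Leaving out any of the other livers gave an adjusted p of 0.18 or more in edgeR. The log2 fold change was 0.73 without Usp39-HKO liver 4 (adjusted p = 0.677 in edgeR). The SD of Hamp2 within groups was 1.58, and 14 genes had a larger one. With the counts of Hamp and Hamp2 summed, the log2 fold change was 1.14 (edgeR, adjusted p = 0.33).

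Among the genes whose profile over the 8 livers was closest to that of Hamp, by the root mean square (RMS) distance of log2 CPM centred on each gene's own mean, were Cyp2b9 (0.80), Id1 (0.89), Lcn2 (0.92) and Cyp2a22 (0.94). The median distance over all genes was 1.58 and the RMS of Hamp about its own mean 1.56. The 4 genes were picked for their small distance, which is a description and no test. The distance was taken over all 8 livers and not within genotypes, so it also carries the difference of Hamp between genotypes. The fold changes of these genes are therefore not independent of that of Hamp. Cyp2b9 and Cyp2a22 encode drug-metabolising oxygenases of the liver, Id1 is a target of BMP signalling and Lcn2 encodes lipocalin 2, an acute phase protein that binds iron-carrying siderophores. The FPKM of Cyp2b9 was 15.0, 29.0, 18.7 and 72.6 in control livers and 136, 45.6, 27.8 and 63.0 in Usp39-HKO livers. Like Hamp, Cyp2b9 was highest in Usp39-HKO liver 1 and high in control liver 4. Cyp2a22 was at 62.0 FPKM in Usp39-HKO liver 1 and between 3.24 and 17.5 in the other livers. Hamp2 came 154th of 14339 genes in this order, with a distance of 1.26. None of Cyp2b9, Lcn2 and Cyp2a22 passed the test between genotypes (log2 fold changes of 0.81, 1.55 and 1.61, adjusted p of 0.308, 0.0893 and 0.0638 in edgeR), but Cyp2a22 did without control liver 2 (2.02, adjusted p = 0.0445 in edgeR) or Usp39-HKO liver 3 (1.86, adjusted p = 0.0483 in edgeR), and it was at 0.70 without Usp39-HKO liver 1. Without that liver Cyp2b9 was at 0.17 and Lcn2 at 0.77, and without control liver 4 they were at 1.49 and 2.13. Without TMM scaling Cyp2a22 (1.80, adjusted p = 0.027 in edgeR) and Lcn2 (1.75, adjusted p = 0.0416 in edgeR) passed too, and both passed without a filter on low values (adjusted p of 0.00362 and 0.00776 in edgeR).

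**Figure D2:**
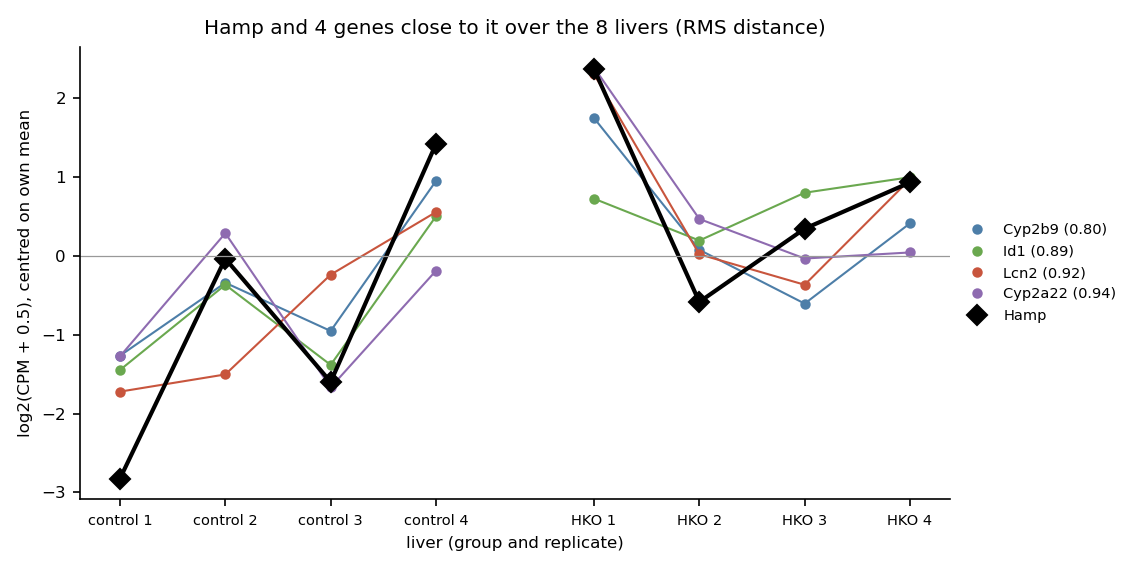
Log2(CPM + 0.5) of Hamp (black) and of 4 genes close to it in each liver, each centred on its own mean over the 8 livers, with the RMS distance in the key. Hamp was lowest in control liver 1 and highest in Usp39-HKO liver 1, and control liver 4 lay above 3 of the 4 Usp39-HKO livers.

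Bmp6 (ENSMUSG00000039004, chr13:38345107-38500302, plus strand) encodes the BMP ligand that sinusoidal endothelial cells of the liver release under iron load and that drives hepcidin. Its FPKM was 1.95, 2.38, 2.45 and 3.10 in control livers and 3.98, 3.29, 3.12 and 4.08 in Usp39-HKO livers. Each Usp39-HKO liver lay above each control liver, with Usp39-HKO liver 3 only just above control liver 4. The control mean was 2.47 ± 0.473 and the Usp39-HKO mean 3.62 ± 0.485 (SD, n = 4 each, exact permutation test, two-sided, p = 0.029). With 4 livers a group no smaller p can arise. Of all genes tested 3430 (23.9%) were likewise higher in every Usp39-HKO liver. With FPKM divided by the TMM factor the groups of Bmp6 differed by 0.66 (exact permutation test, p = 0.114), and the log2 fold change was 0.31 (SE 0.16, adjusted p = 0.194 in edgeR), so the gene did not pass, although it did without TMM scaling (0.55, adjusted p = 0.0336 in edgeR) and in limma. It had between 70 and 151 counts per liver, and 5.74% of its exon bases lie opposite exons of Txndc5, with between 1217 and 1865 counts. Whether the counting used the strand is not given in the sources used here, so a part of the Bmp6 count may belong to Txndc5. The summed FPKM of 10 sinusoidal endothelial markers was 156, 176, 163 and 173 in control livers and 170.5, 176, 162 and 179 in Usp39-HKO livers. Divided by the TMM factor, this sum was lower in every Usp39-HKO liver, at 168, 162, 153 and 151 against 171, 190.4, 178 and 184 in control livers, so its direction depends on scaling.

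Tfr2 (ENSMUSG00000029716, chr5:137569840-137587481, plus strand) encodes transferrin receptor 2, a hepatocyte sensor of transferrin-bound iron that promotes hepcidin output. It fell in Usp39-HKO livers to 48.9% of the control level after scaling. Its FPKM was 118, 141, 124 and 140.2 in control livers and 93.3, 81.1, 63.6 and 60.5 in Usp39-HKO livers. Every Usp39-HKO liver was below every control liver, and Usp39-HKO livers 3 and 4 were the lowest. The means were 131 ± 11.6 and 74.6 ± 15.4 (SD, n = 4 each, two-sided exact permutation test, p = 0.029). The log2 fold change was -1.03 with an SE of 0.17 (edgeR, adjusted p = 0.00244). The gene passed in all 15 alternatives and lay between -1.18 and -0.91 with any liver left out. Of the 14340 genes, 284 (1.98%) were called lower with a fall as large as that of Tfr2, and 690 (4.81%) were lower in every Usp39-HKO liver.

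Tmprss6 (ENSMUSG00000016942, chr15:78439667-78468634, minus strand) encodes matriptase-2, the hepatocyte protease that cuts hemojuvelin and thereby holds hepcidin down. It also fell, to 64.6% of the control level after TMM scaling. The FPKM of Tmprss6 was 140.0, 174, 159.7 and 161 in control livers and 123, 127, 126 and 103 in Usp39-HKO livers. The groups did not overlap, and Usp39-HKO liver 4 was the lowest of all, apart from the other 3. With means of 159 ± 14.2 and 120.0 ± 11.5 (SD, n = 4 each, two-sided exact permutation test, p = 0.029), the log2 fold change was -0.63 (SE 0.13, adjusted p = 0.00735 in edgeR). Tmprss6 passed in all 15 alternatives too, and its log2 fold change was between -0.68 and -0.53 with any liver left out, and smallest, at -0.40, without scaling between livers. Both falls thus concern hepatocyte genes with opposite known effects on hepcidin.

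**Figure D3:**
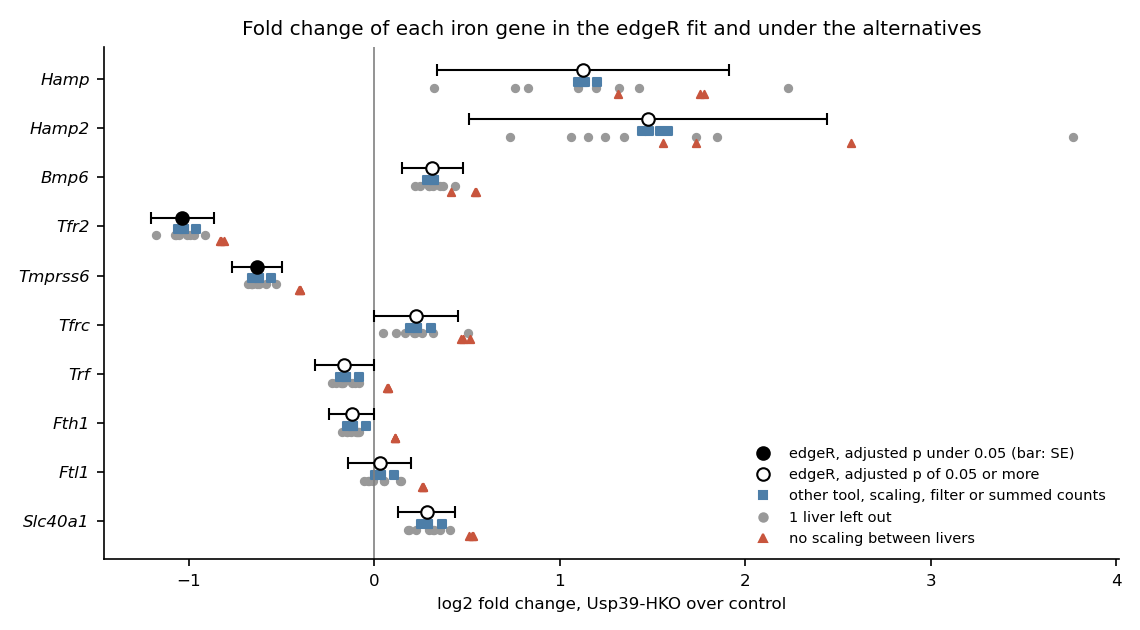
Log2 fold change of each iron gene, Usp39-HKO over control, in edgeR with its SE (circles, filled where the adjusted p was under 0.05), with other tools, scalings or filters (blue squares), with 1 liver left out (grey points) and without scaling between livers (red triangles). Tfr2 and Tmprss6 stay below 0 throughout, and Hamp and Hamp2 spread the most.

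Hepatocyte markers moved the same way as Tfr2 and Tmprss6 in part. Of 10 such markers 5 fell and none rose, against 11.6% lower and 10.9% higher of all genes tested. Their median log2 fold change was -0.50, or -0.26 without TMM scaling and -0.27 in limma. Serpina1c, an antitrypsin gene, changed the most among those that passed, by -0.80 (edgeR, adjusted p = 0.0206), and did not pass without control liver 1 (-0.74, adjusted p = 0.0559 in edgeR) or 3 (-0.75, adjusted p = 0.0612 in edgeR). The count of 5 was 0 without control liver 1 or 3, 1 without control liver 4 or Usp39-HKO liver 3, 2 without Usp39-HKO liver 2 and 3 without Usp39-HKO liver 4. It was 2 without TMM scaling and 1 and 0 in limma. Albumin, the most abundant of these markers at a mean of 8189 FPKM, had a log2 fold change of -0.14 that did not pass (edgeR, adjusted p = 0.626) and turned to 0.084 without TMM scaling and to 0.075 in limma. The summed FPKM of the 10 markers was 21345, 22509, 21880.3 and 20295 in control livers and 23378, 17331, 20926 and 17229 in Usp39-HKO livers, so the groups overlapped. Divided by the TMM factor, the sum ran from 21584 to 24419 in controls and from 14491 to 23105 in Usp39-HKO livers, and the difference of the means went from -1791 to -5049. In bulk tissue, fewer cells of a type and less RNA per cell cannot be told apart, and the part of cell make-up in the falls of Tfr2 and Tmprss6 was not tested.

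Tfrc (ENSMUSG00000022797, chr16:32608920-32632794, plus strand) encodes transferrin receptor 1, which takes transferrin-bound iron into cells and is most abundant in dividing and erythroid cells. Its FPKM was 9.24, 16.4, 10.4 and 6.72 in control livers and 11.6, 17.9, 13.5 and 16.2 in Usp39-HKO livers. Control liver 2 was higher than 3 of the Usp39-HKO livers, and the groups overlapped. The log2 fold change was 0.22 (SE 0.23, adjusted p = 0.518 in edgeR), with 0.049 without control liver 4, 0.12 without Usp39-HKO liver 2, 0.51 without control liver 2 (adjusted p = 0.0589 in edgeR) and 0.47 without TMM scaling, none of which passed. Set against Tfr2 in the same liver, the level of Tfrc was 7.83%, 11.6%, 8.40% and 4.79% in control livers and 12.5%, 22.1%, 21.2% and 26.8% in Usp39-HKO livers, without overlap. This ratio carries the fall of Tfr2, given above, and is no measure of Tfrc alone. The coding sequences of the 2 receptors are 52.8% identical, too little for shared reads.

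Trf (ENSMUSG00000032554, chr9:103204001-103230444, minus strand) encodes transferrin, the iron carrier of the blood, and had the highest level of the 10 genes in every liver. Its FPKM ran from 2039 to 2581 in controls and from 2071 to 2579 in Usp39-HKO livers, with overlapping groups. The log2 fold change was -0.16 (SE 0.16, adjusted p = 0.519 in edgeR), and 0.073 without TMM scaling. Of its exon bases 63.5% are also annotated to Gm20425 on the same strand, and how reads over both were counted is not given in the sources used here, so its level is uncertain.

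Fth1 (ENSMUSG00000024661, chr19:9980598-9985098, plus strand) and Ftl1 (ENSMUSG00000050708, chr7:45457944-45459884, minus strand) encode the heavy and light chains of ferritin, the store of iron inside cells. The FPKM of Fth1 was 293, 298, 277 and 255 in control livers and 312, 282, 314 and 307 in Usp39-HKO livers. Fth1 was the steadiest of the 10 genes, with an SD within groups of 0.12 on the log2 scale. Its log2 fold change was -0.12 (SE 0.12, adjusted p = 0.518 in edgeR), and 0.11 without TMM scaling. Ftl1 ran from 409 to 602 FPKM in controls and from 486 to 657 in Usp39-HKO livers, with a log2 fold change of 0.03 (SE 0.17, adjusted p = 0.919 in edgeR). Every liver held more light chain than heavy chain transcript per length, with a ratio between 1.59 and 2.09 that overlapped between genotypes. Matches of at least 150 bases at 97% identity or more to 6 other genes or pseudogenes together covered all bases of the Ftl1 transcript. The longest, to Ftl1-ps1, was 910 of 968 bases, and Ftl1-ps1 had between 113 and 200 counts per liver, and the treatment of reads that fit several genes is not given in the sources used here. The level of Ftl1 is therefore uncertain as well.

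Slc40a1 (ENSMUSG00000025993, chr1:45908068-45926523, minus strand), the ferroportin gene, is active in macrophages of the liver as well as in hepatocytes. Its FPKM was 27.6, 24.1, 19.4 and 18.1 in control livers and 26.6, 29.7, 30.6 and 42.02 in Usp39-HKO livers. Usp39-HKO liver 4 was the highest, but control liver 1 was above Usp39-HKO liver 1, so the groups overlapped. The means were 22.3 ± 4.37 and 32.2 ± 6.74 (SD, n = 4 each, two-sided exact permutation test, p = 0.057), and the log2 fold change was 0.28 (SE 0.16, adjusted p = 0.218 in edgeR). It ran from 0.18 without Usp39-HKO liver 4 to 0.41 without control liver 1. It did not pass with any 1 liver left out (adjusted p of 0.0954 or more in edgeR). Markers of Kupffer cells, the resident macrophages of the liver, were higher in Usp39-HKO livers, where 8 of 10 passed and none fell, against 10.9% higher and 11.6% lower of all genes tested. Their summed FPKM was 330, 399, 309.6 and 338 in control livers and 567, 577, 592 and 844 in Usp39-HKO livers, highest in the liver with the most Slc40a1. Among controls, however, Slc40a1 was highest in liver 1 and the sum of these markers in liver 2. The most abundant of them, Cd5l, rose by 0.75 (edgeR, adjusted p = 0.00355), and Marco, a scavenger receptor, by 1.25 (edgeR, adjusted p = 0.0117). None of the 10 was at 0 in all livers. The count of 8 was 5 without control liver 1, control liver 4 or Usp39-HKO liver 4 and 4 without control liver 3, and their part in the Slc40a1 values was not tested.

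The ferritin, ferroportin and Tfrc transcripts carry iron responsive elements, hairpins that iron regulatory proteins bind when iron is scarce, which blocks translation from the 5′ UTR and protects the transcript from decay when in the 3′ UTR. The elements are shown because 4 of the 10 genes carry them, and RNA counts do not report a block of translation from the 5′ UTR sites of Fth1, Ftl1 and Slc40a1. A CAGTGN loop on a stem of 5 base pairs was found in the GENCODE M21 transcripts of GRCm38 once in Fth1, once in Ftl1, once in Slc40a1 and 4 times in Tfrc. Each site is 30 bases long with the loop in capitals, in the 5′ UTR of Fth1 (chr19:9982732-9982761, plus strand), of Ftl1 (chr7:45459778-45459807, minus strand) and of Slc40a1 (chr1:45925464-45925493, minus strand), and in the 3′ UTR of Tfrc, of which the first of 4 is given (chr16:32631219-32631248, plus strand).
Fth1: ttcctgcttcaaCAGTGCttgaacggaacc
Ftl1: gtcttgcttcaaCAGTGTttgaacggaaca
Slc40a1: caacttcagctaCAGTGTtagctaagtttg
Tfrc: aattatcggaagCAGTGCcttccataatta
Both genes for the regulators that bind these sites were lower in Usp39-HKO livers after TMM scaling. Aco1, which encodes iron regulatory protein 1, had an FPKM of 57.5, 52.2, 53.7 and 54.8 in control livers and of 40.9, 50.8, 45.7 and 49.1 in Usp39-HKO livers, and fell (log2 fold change -0.46, SE 0.10, adjusted p = 0.00707 in edgeR). Ireb2, which encodes iron regulatory protein 2 and is named here after its values were seen, had an FPKM between 13.3 and 17.4 in control livers and between 13.2 and 15.1 in Usp39-HKO livers. Its log2 fold change of -0.34 passed by little (edgeR, adjusted p = 0.0455) and kept the call without control liver 2, but not without any of the other 7 livers (adjusted p between 0.0583 and 0.151 in edgeR). Neither gene passed without TMM scaling (adjusted p of 0.127 for Aco1 and 0.519 for Ireb2 in edgeR) or in limma, and Ireb2 did not pass without a filter on low values or with a mean FPKM of at least 5 (adjusted p of 0.0507 and 0.101 in edgeR).

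The order of the levels was much the same in both genotypes. In controls the mean FPKM ran from Trf (2225) over Ftl1 (492), Fth1 (281), Hamp (185), Tmprss6 (159), Tfr2 (131), Slc40a1 (22.3), Tfrc (10.7) and Hamp2 (2.79) to Bmp6 (2.47). In Usp39-HKO livers it ran from Trf (2337) over Ftl1 (588), Hamp (462), Fth1 (303), Tmprss6 (120.0), Tfr2 (74.6), Slc40a1 (32.2), Tfrc (14.8) and Hamp2 (9.63) to Bmp6 (3.62). Hamp, by its mean, stood above Fth1 in Usp39-HKO livers and below it in controls, but in both groups its range over livers took in that of Fth1, so this change of places is within the spread. Neighbours with overlapping ranges were Fth1 and Hamp, Hamp and Tmprss6, Tmprss6 and Tfr2, Tfrc and Hamp2, and Hamp2 and Bmp6 in controls, and Ftl1 and Hamp, Hamp and Fth1, Tfrc and Hamp2, and Hamp2 and Bmp6 in Usp39-HKO livers. Tmprss6 was above Tfr2 in all 4 livers of each group. In controls, Hamp was above Tmprss6 and Hamp2 above Bmp6 only in control liver 4, so these 2 places rest on 1 liver.

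The BMP-SMAD arm, the pathway from BMP ligands and receptors to their target genes, was read from 21 genes, of which 20 were tested. The list also holds regulators of the pathway, such as Furin and the inhibitory Smad6, so its counts and median mix genes of opposite known roles. In Usp39-HKO livers 3 were higher (Id1, Id3 and Smad6) and 1 lower (Furin), so that 4 of 20 passed, near the 22.5% of all genes tested. The median log2 fold change of the 20 was 0.10, and 0.068 without control liver 2. Without TMM scaling it was 0.34, where the median of all genes tested was 0.24. No list was tested as a whole. Id3, a target that BMP signals induce in liver cells, had an FPKM of 19.2, 31.5, 14.4 and 34.1 in control livers and 49.8, 47.7, 81.7 and 74.4 in Usp39-HKO livers. The groups of Id3 did not overlap, and its rise of 1.11 (SE 0.25, adjusted p = 0.0104 in edgeR) passed in all 15 alternatives. Id1, a target of the same kind, had an FPKM of 5.16, 11.5, 5.42 and 21.7 in control livers and 27.3, 20.1, 30.3 and 38.7 in Usp39-HKO livers, where control liver 4 overlapped with Usp39-HKO liver 2. Its rise of 1.16 (SE 0.37, adjusted p = 0.0445 in edgeR) kept the call without control liver 4 (1.72, adjusted p = 0.00711 in edgeR) or Usp39-HKO liver 2 (1.30, adjusted p = 0.0386 in edgeR) and lost it without any of the other 6 livers (adjusted p between 0.0544 and 0.112 in edgeR) and in DESeq2 (adjusted p = 0.0663, against 0.0445 in edgeR). Smad6, an inhibitory SMAD that BMP signals induce, rose by 0.44 (SE 0.13, adjusted p = 0.0309 in edgeR), and kept the call without control liver 2 (adjusted p = 0.0133 in edgeR) or Usp39-HKO liver 1 (adjusted p = 0.0154 in edgeR) but not without any of the other 6 livers (adjusted p between 0.0604 and 0.0939 in edgeR) or without a filter on low values (adjusted p = 0.0685 in edgeR). Fgl1, which encodes a secreted hepatocyte protein and was the most abundant gene of the list, had a log2 fold change of -0.50 (edgeR, adjusted p = 0.18), and passed without Usp39-HKO liver 1 (-0.84, adjusted p = 0.00405 in edgeR).

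Furin and the upstream genes Hjv, Hfe and Bmp2 are named after their values were seen, for their known roles. Furin encodes a protease that trims hepcidin and hemojuvelin precursors, and its fall of 0.43 on the log2 scale (edgeR, adjusted p = 0.0422) kept the call only without Usp39-HKO liver 1 among the 8 livers left out in turn (adjusted p between 0.0635 and 0.102 in edgeR without any of the others), and lost it without TMM scaling and with a mean FPKM of at least 5 (adjusted p of 0.218 and 0.0697 in edgeR). Hjv encodes hemojuvelin, the BMP co-receptor that matriptase-2 cuts, and its mean FPKM was 56.9 ± 4.27 in the 4 controls and 72.1 ± 5.09 with the deletion (SD, n = 4 each), with a log2 fold change of 0.11 (edgeR, adjusted p = 0.479). Bmp2, a BMP ligand of the sinusoidal endothelium, had a log2 fold change of 0.21 (edgeR, adjusted p = 0.197), and both Hjv (0.34, adjusted p = 0.0273) and Bmp2 (0.45, adjusted p = 0.0134) passed in edgeR without TMM scaling. Hfe, the hemochromatosis gene, had a log2 fold change of -0.08 (edgeR, adjusted p = 0.572) and of 0.15 without TMM scaling. Erfe, which encodes the erythroid hormone erythroferrone, was not tested, with between 0 and 4 counts per liver. Without TMM scaling 10 genes of the list passed, all higher, as did 9 in limma, but in these settings most calls over all genes were higher too, 3525 of 4221 without TMM and 3031 of 3668 in limma with log2(FPKM + 1). With TMM the count of 4 fell to 1 without control liver 1, control liver 3, Usp39-HKO liver 3 or Usp39-HKO liver 4, and to 2 without control liver 2 or 4. It did not fall in every setting with TMM. With a mean FPKM of at least 5, 15 genes of the list were tested, 5 higher and 0 lower, with a median log2 fold change of 0.18. In that setting 750 of all 6672 genes tested were higher and 845 lower.

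The inflammatory arm, the path from IL-6 to STAT3 and the acute phase, held 13 genes, of which 12 were tested. Il6ra, the receptor chain that binds IL-6, was the only gene called, 1 of 12 against 22.5% of all genes tested, and it fell. Its FPKM was 10.5, 10.5, 15.5 and 17.5 in control livers and 9.88, 7.50, 6.52 and 6.84 in Usp39-HKO livers, so that the groups met closely but did not overlap. The log2 fold change of Il6ra was -1.04 (SE 0.20, adjusted p = 0.00499 in edgeR), and it passed in all 15 alternatives. Lcn2, the most abundant gene of the list, had an FPKM of 8.18, 9.65, 23.2 and 41.5 in control livers and 151, 33.0, 24.7 and 69.9 in Usp39-HKO livers. Control liver 4 was above Usp39-HKO livers 2 and 3, and Usp39-HKO liver 1, the liver with the most Hamp, was far above all. Lcn2 passed without control liver 4 (2.13, adjusted p = 0.0487 in edgeR), but not with all livers (1.55, adjusted p = 0.0893), and it was at 0.77 without Usp39-HKO liver 1 (edgeR, adjusted p = 0.282). The median log2 fold change of the 12 genes was 0.11, but -0.11 without Usp39-HKO liver 1 and 0.049 without control liver 2. Without Usp39-HKO liver 1, 3 of the 12 were called lower and 0 higher, but without Usp39-HKO liver 2, 1 was lower and 2 higher. Without control liver 2, 2 were called lower and 0 higher, and without control liver 4, 1 of the 12 genes was lower and 1 higher. Without TMM scaling 4 of them were higher and 1 lower. Il6 itself was not tested, with between 0 and 6 counts per liver.

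Iron uptake, trafficking and sensing were read from 19 genes, of which 17 were tested, 1 higher and 3 lower, again near the 22.5% of all genes tested, with a median log2 fold change of -0.12, or 0.12 without TMM scaling. Steap4, which encodes a metalloreductase, had an FPKM of 21.3, 19.0, 22.8 and 21.4 in control livers and 42.7, 41.6, 31.9 and 49.5 in Usp39-HKO livers. The groups lay well apart, and Steap4 rose by 0.73 (SE 0.12, adjusted p = 0.0024 in edgeR), a call kept in all 15 alternatives. The 3 lower genes were Aco1, Ireb2 and Slc39a8, which encodes a zinc and iron importer. Slc39a8 was between 5.54 and 6.25 FPKM in controls and between 4.86 and 5.59 in Usp39-HKO livers, with a fall of 0.43 on the log2 scale (edgeR, adjusted p = 0.0102) that did not pass without TMM scaling (-0.16 to -0.19 on that scale). Cp, the most abundant gene of the list, encodes ceruloplasmin, the copper ferroxidase of the blood that loads iron onto transferrin, and its log2 fold change was -0.13 (edgeR, adjusted p = 0.47), or 0.11 without TMM scaling. Cybrd1, with between 0 and 7 counts, and Ftmt, with 0 counts in all livers, were not tested. Without TMM scaling 2 genes of the list passed, both higher, and without Usp39-HKO liver 1, 6 passed.

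**Figure D4:**
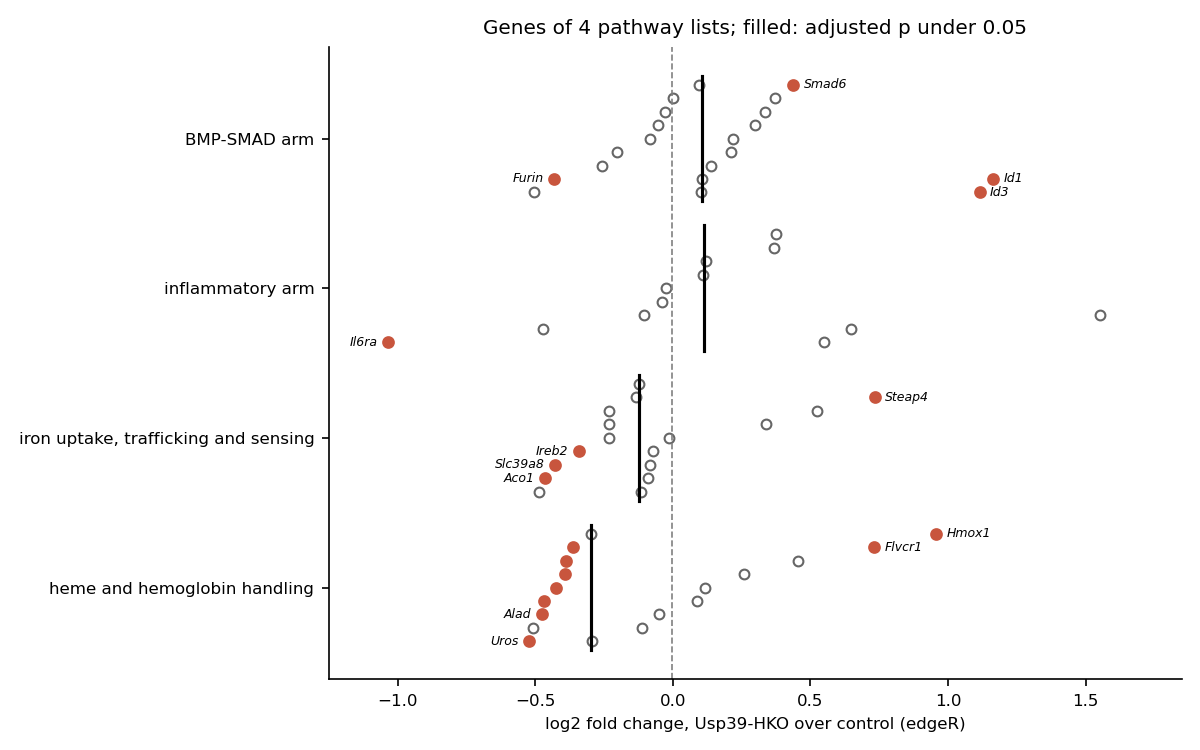
Log2 fold change, Usp39-HKO over control, of each tested gene of 4 pathway lists in edgeR with TMM scaling, filled and in red where the adjusted p was under 0.05. Black bars are the median of each list, between -0.30 and 0.11, and the dashed line is the median of all genes tested. Named genes that passed carry their symbols, and Id1, Id3, Il6ra and Hmox1 lie farthest from 0 among them.

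Heme and hemoglobin handling, which returns the iron of old red cells, was read from 18 genes, all tested, of which 2 were higher and 7 lower, against 10.9% higher and 11.6% lower of all genes tested, with a median log2 fold change of -0.30, or -0.057 without TMM scaling. Hmox1 encodes heme oxygenase 1, which opens heme and frees its iron. Its FPKM was 24.4, 26.1, 26.2 and 29.2 in control livers and 47.8, 49.5, 49.4 and 98.7 in Usp39-HKO livers. Usp39-HKO livers 1 to 3 lay together, liver 4 stood apart at the top, and all were above the controls. The rise of Hmox1 was 0.96 (SE 0.18, adjusted p = 0.0046 in edgeR), and 0.69 without Usp39-HKO liver 4. Flvcr1, a heme exporter gene, rose by 0.73 (SE 0.17, adjusted p = 0.00976 in edgeR) and also had its highest level, 3.65 FPKM, in that liver, against 1.14 to 1.58 in controls. Hmox1 and Flvcr1 kept their calls in all alternatives that tested them. Among the lower genes, Uros (-0.52, SE 0.16, adjusted p = 0.0353 in edgeR) and Alad (-0.48, SE 0.10, adjusted p = 0.00562 in edgeR, named after its values were seen) encode enzymes of heme synthesis. Uros kept the call without control liver 2 (adjusted p = 0.0311 in edgeR) or Usp39-HKO liver 2 (adjusted p = 0.00758 in edgeR) but not without any of the other 6 (adjusted p between 0.0704 and 0.105 in edgeR), nor without TMM scaling or with a mean FPKM of at least 5 (adjusted p of 0.205 and 0.0696 in edgeR). Alad kept it without any 1 liver, but not without TMM scaling (adjusted p = 0.131 in edgeR). The 7 lower calls rest on scaling, since without TMM 0 genes of the list were lower and 5 higher in edgeR, and in limma on FPKM 0 were lower and 4 or 5 higher. The count of 9 was 5 without control liver 3 or 4, and 6 without Usp39-HKO liver 3 or 4. Hpx, the hemopexin gene and the most abundant of the list, had a log2 fold change of -0.05 (edgeR, adjusted p = 0.913) that changed sign without scaling (0.16).

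Transcripts of other cells moved with genotype beside these lists. Erythroid markers were lower, with 4 of 5 tested genes called, against 22.5% of all genes tested, and a median log2 fold change of -1.57, out of 8 genes found of 10. Their summed FPKM was 216, 429, 299 and 289 in control livers and 77.2, 158, 188 and 95.9 in Usp39-HKO livers, without overlap. Hba-a1, an alpha globin gene and the most abundant, fell by 1.38 (edgeR, adjusted p = 0.00589) and Hbb-bt, a beta globin gene, by 1.76 (edgeR, adjusted p = 0.00831) on the log2 scale. Slc4a1, Gata1 and Epb42, defining genes of red cell precursors, were below the filter on low values, and none of the 8 was at 0 in every liver. Proliferation markers were higher, with 5 of 6 called, and their summed FPKM was 10.7, 15.5, 12.3 and 13.7 in control livers and 38.8, 29.6, 28.3 and 39.2 in Usp39-HKO livers. Ccnb1, a mitotic cyclin gene, rose by 3.38 (edgeR, adjusted p = 0.000184), and Pcna, the most abundant of them, had a log2 fold change of 0.36 (edgeR, adjusted p = 0.064), and passed without TMM scaling (0.60, adjusted p = 0.00654 in edgeR), in limma and with a mean FPKM of at least 5 (0.44, adjusted p = 0.0279 in edgeR). Tfrc, which erythroid and dividing cells carry, did not pass while these lists moved in opposite directions, and their part in its values was not tested.

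Of 10 stellate cell markers 8 were higher and none lower, against 10.9% and 11.6% of all genes tested, with summed FPKM of 92.9, 85.6, 86.7 and 81.0 in control livers and 127, 219, 184 and 248 in Usp39-HKO livers. Col1a1, a collagen gene, rose by 1.70 (edgeR, adjusted p = 0.00333), and Dcn, the most abundant, by 0.83 (edgeR, adjusted p = 0.00224). Of 6 cholangiocyte markers 4 were tested and all 4 were higher. Spp1, the osteopontin gene, which is also active in other cells of an injured liver, rose by 2.32 (edgeR, adjusted p = 0.000924) and made up 91.3% of their sum, which was 28.3, 28.7, 26.4 and 27.4 FPKM in control livers and 64.2, 139, 149 and 286 in Usp39-HKO livers. Krt7 and Cftr were not tested, with between 5 and 45 and between 1 and 37 counts. Of 10 sinusoidal endothelial markers 2 were lower and none higher, with Lyve1 at -0.997 (edgeR, adjusted p = 0.016), which missed the threshold without control liver 3 (-0.87, adjusted p = 0.0537 in edgeR), and the most abundant, Ehd3, at 0.02 (edgeR, adjusted p = 0.937). The count of 2 was 4 without Usp39-HKO liver 1, 0 without control liver 3 and 1 without any of the other 6 livers, and without TMM scaling 2 of the 10 were higher and 1 lower, so the direction of the list depends on scaling. No gene of these 3 lists was at 0 in every liver. Whether cell make-up has a part in the values of the iron genes was not tested.

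**Figure D5:**
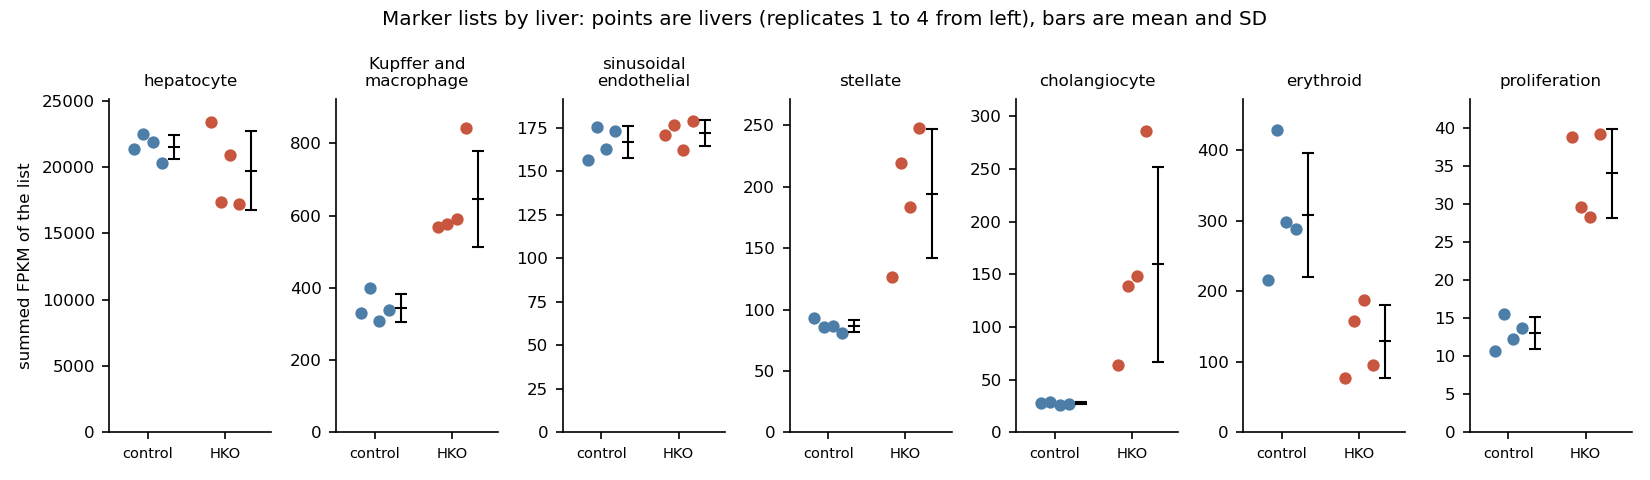
Summed FPKM of 7 marker lists in each liver, 4 control livers in blue and 4 Usp39-HKO livers in red, with mean and SD (n = 4) beside each group. Kupffer, stellate, cholangiocyte and proliferation markers were higher and erythroid markers lower in Usp39-HKO livers without overlap, and the hepatocyte and sinusoidal endothelial sums overlapped in FPKM. Divided by the TMM factor, which is not drawn, the sinusoidal endothelial sums were lower in Usp39-HKO livers without overlap and the hepatocyte sums still overlapped.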

How the data were processed

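Per the methods and the submitters' processing notes, the authors trimmed reads with Trim Galore 0.6.1, checked them with FastQC 0.11.9, aligned them to mm10 with HISAT2 and counted them per gene with featureCounts. In the paper's methods, Trim Galore and FastQC are named for the RIP-seq reads, from RNA pulled down with Usp39. Picard and DESeq2 are also named. The annotation release, the use of strand and the treatment of reads that fit several genes are not given in the sources used here. The deposited raw count and the deposited FPKM of each gene in each of the 8 livers were used. The exon length beside them gives the FPKM back from the counts. The authors' comparison columns were not used, namely a deposited mean signal, a log2 fold change, scores (the standard error of that change and a Wald statistic) and a p-value with its adjusted form. Of 55699 entries, 314 repeated a gene identifier and were read once, which left 55385, of which 28412 had a count. Of the identifiers 55144 (99.6%) are in GENCODE M21, and 99.1% have the same exon length there.

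Genes that reached an FPKM of 0.5 in 4 or more livers were tested with edgeR 4.0.16 (quasi-likelihood, TMM factors from 0.911 to 0.940 for control and from 1.01 to 1.19 for Usp39-HKO livers, R 4.3.3, common biological coefficient of variation 0.179). P-values are two-sided and adjusted by Benjamini-Hochberg over the 14340 genes. Replicates are separate mice. Floors cover counting error only, and neither PCR duplication nor the spread between mice, which SD and SE take in. SE is the log2 fold change divided by the square root of F. Levels were compared by exact permutation over the 70 assignments of 8 livers to 2 groups. Alternatives were DESeq2 1.42.0, median-ratio factors, no TMM, no filter, a mean FPKM of at least 5, limma 3.58.1 on log2(FPKM + 1) and log2(FPKM + 0.1), Hamp and Hamp2 summed, the study's cutoff, FPKM over TMM factor, TPM and each liver left out. The fits were also tried on simulated data, in which all genes had the same spread and as many rose as fell. That run does not test the scaling or widely spread genes such as Hamp. Sequence was compared with BLAST+ 2.17.0+ and Biopython 1.88. In place of protein identity, which had been planned, coding sequences were aligned.

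The 10 genes and all lists were chosen with earlier results of these data known. Named genes are the 10, Usp39, the 3 largest changes with an adjusted p under 0.05 and the most abundant gene of each pathway list, the largest such change and the most abundant gene of each marker list, and genes closest to Hamp. Furin, Hjv, Hfe, Bmp2, Ireb2 and Alad were added after their values were seen. Items taken by these rules that are withheld for evaluation are not reported here.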

Additional observations from a re-analysis of the deposited data

Results flagged for a closer look

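In 9 of 106 groups of 4 livers tested, the highest or lowest liver lay far from the other 3, and chance alone marks about 1 in 20 groups. Among the iron genes these were Hamp2 in control liver 4, at 9.38 FPKM, and Tmprss6 in Usp39-HKO liver 4, at 103.0 FPKM. In the same Usp39-HKO liver 4, Hmox1 stood at 98.7 FPKM, Flvcr1 at 3.65 FPKM and the summed Kupffer cell and macrophage markers at 844 FPKM, above the other Usp39-HKO livers. This liver also had the largest TMM factor, 1.19. In Usp39-HKO liver 1, Cyp2a22 stood at 62.0 FPKM and Furin at 45.6 FPKM, above the other 3 of the group. In the controls, Marco was at 49.1 FPKM in liver 2 and Lyve1 at 28.8 FPKM in liver 3, above the rest. The causes were not tested.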

How the results depend on the processing

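Of the log2 fold changes of named genes under the alternatives, 560 kept their direction and their side of an adjusted p of 0.05, 60 lost the call, 23 gained it and 30 changed sign. The causes were not tested, other than that the alternatives without scaling do not take out the shift of the median gene. The edgeR fit without TMM called 4 iron genes, limma 3 and all others 2, apart from 3 without control liver 4. With a mean FPKM of at least 5, which leaves fewer genes, 1595 genes were called in all, and between 1931 and 3510 with 1 liver left out. At the study's cutoff 3116 genes passed.

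Without TMM, the lists for BMP-SMAD, inflammation, iron uptake and heme had 10, 5, 2 and 5 genes called, and in limma with a pseudocount of 1 and of 0.1 they had 9 and 9, 3 and 3, 1 and 1, and 4 and 5. Inflammation had 3 without a filter, and heme 4 with a mean FPKM of at least 5. With 1 liver left out the ranges were 1 to 4 (BMP-SMAD), 1 to 3 (inflammation), 3 to 6 (iron uptake) and 5 to 8 (heme). Usp39 was at -0.18 without TMM and at -0.16 and -0.18 in limma, none of which passed, and between -0.45 and -0.35 with 1 liver left out.

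Changes of sign, in the order edgeR without TMM, limma with a pseudocount of 1 and of 0.1, were 0.073, 0.072 and 0.072 for Trf, 0.114, 0.113 and 0.113 for Fth1, 0.107, 0.0985 and 0.0990 for Cp, 0.161, 0.0929 and 0.0929 for Hpx, 0.0844, 0.0747 and 0.0747 for Alb, and 0.15, 0.15 and 0.16 for Hfe. Hpx was at 0.019 with a mean FPKM of at least 5 and between -0.36 and 0.11 with 1 liver left out, Ftl1 between -0.056 and 0.15, and Ehd3 between -0.051 and 0.090, or -0.013 without a filter. As a difference of mean levels, Trf was at -255.8 and Fth1 at -24.9 with FPKM over TMM factor, Fth1 at 80.1 in TPM (exact permutation p = 0.029), and Bmp6 at 0.66 (exact permutation p = 0.114) and 3.57 (exact permutation p = 0.057) in these scales. No paired analysis was possible because the labels pair no mice and name no litter, so litter was not modelled. The livers of each group were numbered in the order of the mouse labels.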
